A study of Homo sapiens with 9 samples.

Results

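The genes described here are 10 enzymes of pyrimidine nucleotide metabolism, chosen by name around cytidine deaminase: CDA, DCTD, DCK, UPP1, UCK2, CMPK1, CAD, DHODH, UMPS and TYMS. They were located in the count table by their Entrez gene numbers, and all 10 were found among the 11746 rows that carry such a number. The set was put together with the response of CDA in these libraries known, so the values of the 10 genes are given as a description and without p-values. The libraries come from HepG2, a human liver cancer line that was infected with a lentivirus carrying Cas9 and a guide RNA and then selected for the vector. Cells of the sgCtrl group received a guide against AAVS1, a safe-harbor site, and cells of the groups sgKeap1-1 and sgKeap1-2 each received a different guide against KEAP1. Each group has 3 libraries, prepared from RNA taken 48 h after seeding, with no siRNA given, and all groups, controls included, received Cas9 and a cutting guide. The share of cells with an edited KEAP1 gene in these libraries was not analysed here. The comparison of each KEAP1 guide with sgCtrl asks which transcripts differ when KEAP1 is targeted, and the comparison of the guides with each other asks whether they differ.

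Cells obtain pyrimidine nucleotides by 2 routes. In de novo synthesis, CAD joins carbamoyl phosphate and aspartate and closes the ring, DHODH oxidizes dihydroorotate in the inner mitochondrial membrane, and UMPS turns orotate into UMP. In salvage, nucleosides are taken up and phosphorylated by kinases such as UCK2 and DCK, while CDA removes the amino group of cytidine and deoxycytidine to give uridine and deoxyuridine. DCTD performs the matching reaction on dCMP and so supplies dUMP, from which TYMS makes thymidylate for DNA. CDA is also known for inactivating cytidine analogs used as drugs, among them gemcitabine and cytarabine. KEAP1 is the adaptor that presents the transcription factor NRF2 for degradation, and NRF2 binds antioxidant response elements (AREs) together with small MAF proteins.

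The upstream sequences of the members were read from RefSeq (GRCh38.p14), as the 250 bases before each annotated start. All 10 members had an entry, with 13 starts between them. The core of the ARE was searched as the letters TGACNNNGC on both strands, letters that can also contain the AP-1 site TGACTCA. This core was found in 2 of the 13 windows, 1 of DCK and 1 of DCTD, against 10.9% of the 35116 upstream windows of this length. A match describes letters only, and its absence says only that these letters are not in the window. CDA is shown because its transcript differed most, and DCK because its window holds the core, printed in capitals and lying on the plus strand with its first base 112 bases before the start. Both genes lie on the plus strand, CDA upstream at chr1:20588847-20589096 and DCK upstream at chr4:70993399-70993648.
CDA: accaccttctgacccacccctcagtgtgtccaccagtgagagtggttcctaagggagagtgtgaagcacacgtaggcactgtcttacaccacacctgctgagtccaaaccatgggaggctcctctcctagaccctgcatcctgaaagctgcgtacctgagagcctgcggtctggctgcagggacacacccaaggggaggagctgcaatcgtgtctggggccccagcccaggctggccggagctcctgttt
DCK: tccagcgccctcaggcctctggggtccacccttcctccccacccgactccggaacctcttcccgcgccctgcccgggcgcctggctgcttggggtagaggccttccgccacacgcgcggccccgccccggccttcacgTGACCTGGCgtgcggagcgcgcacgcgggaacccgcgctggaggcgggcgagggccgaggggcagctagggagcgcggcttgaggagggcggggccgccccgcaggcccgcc
In DCTD the match was GCTGCGTCA, read on the gene's own minus strand and hence an ARE core on the opposite strand, with its first base 184 bases before the later of the gene's annotated starts. No core was present in the CDA window shown above.

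Sequencing gave 3011644 to 4725840 counted reads per library on genes with a number (median 3758185). The libraries were made by QuantSeq, which reads the 3′ end of polyadenylated transcripts, so 1 transcript gives about 1 read whatever its length. Levels are given as normalized CPM, counts per unit of library size (CPM) after scaling of the library sizes by the trimmed mean of M values (TMM). Nothing states that the 3 libraries of a group came from separate cultures, so every p-value measures the spread between these libraries, which may be technical. The targeted gene KEAP1 had 63.3, 89.2 and 85.3 normalized CPM in sgCtrl, 64.1, 62.5 and 53.4 in sgKeap1-1 and 81.9, 85.6 and 73.9 in sgKeap1-2. Neither difference passed the test (log2 fold change -0.40 ± 0.15 (SE), adjusted p = 0.211, and 0.02 ± 0.15, adjusted p = 0.952, edgeR quasi-likelihood test), and reads of the 3′ end do not report on a cut in the coding sequence. All 9 hepatocyte markers were present, with a summed level of 30280 to 37770 normalized CPM in sgCtrl, 17380 to 21890 in sgKeap1-1 and 14280 to 15980 in sgKeap1-2. Of these 9 markers, 1 was higher and 5 lower with sgKeap1-1, 1 was higher and 6 lower with sgKeap1-2, against 4.20% and 10.8% of all features called, and their part in the levels of the 10 genes was not tested. With the replicate block, HNF4A was also called lower with sgKeap1-1, which makes 6 lower, against 8.83% of all features called in that model. Of 9 leukocyte, fibroblast and endothelial markers, CD68, COL1A1 and PDGFRB were in the table, neither of the 2 that passed the filter (CD68 and PDGFRB) was called with either guide, and the sum of all 3 was 10.3 to 20.4, 9.99 to 16.8 and 11.4 to 18.3 normalized CPM in sgCtrl, sgKeap1-1 and sgKeap1-2. As the samples are bulk RNA, fewer cells expressing a gene cannot be told apart from less of its RNA per cell.

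CDA was higher with both KEAP1 guides and stood apart from the other members. It had 3.71, 2.72 and 4.46 normalized CPM in sgCtrl, from 14, 8 and 16 reads. With sgKeap1-1 it had 44.1, 42.3 and 41.0 normalized CPM, from 181, 194 and 156 reads. With sgKeap1-2 it had 52.0, 52.9 and 58.4 normalized CPM, from 169, 217 and 241 reads. Every KEAP1-targeted library lay far above every control library, and within each group the libraries lay close together. The mean level was 3.63 ± 0.87 (SD, n = 3) in sgCtrl, 42.5 ± 1.5 in sgKeap1-1 and 54.4 ± 3.4 in sgKeap1-2, which are 11.7-fold and 15.0-fold the control mean. On the log2 scale the fitted change was 3.52 ± 0.21 (SE) with sgKeap1-1 and 3.88 ± 0.20 with sgKeap1-2. The control level rests on few reads, and CDA is not measured under a filter that asks for 10 reads in every library.

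**Figure D1:**
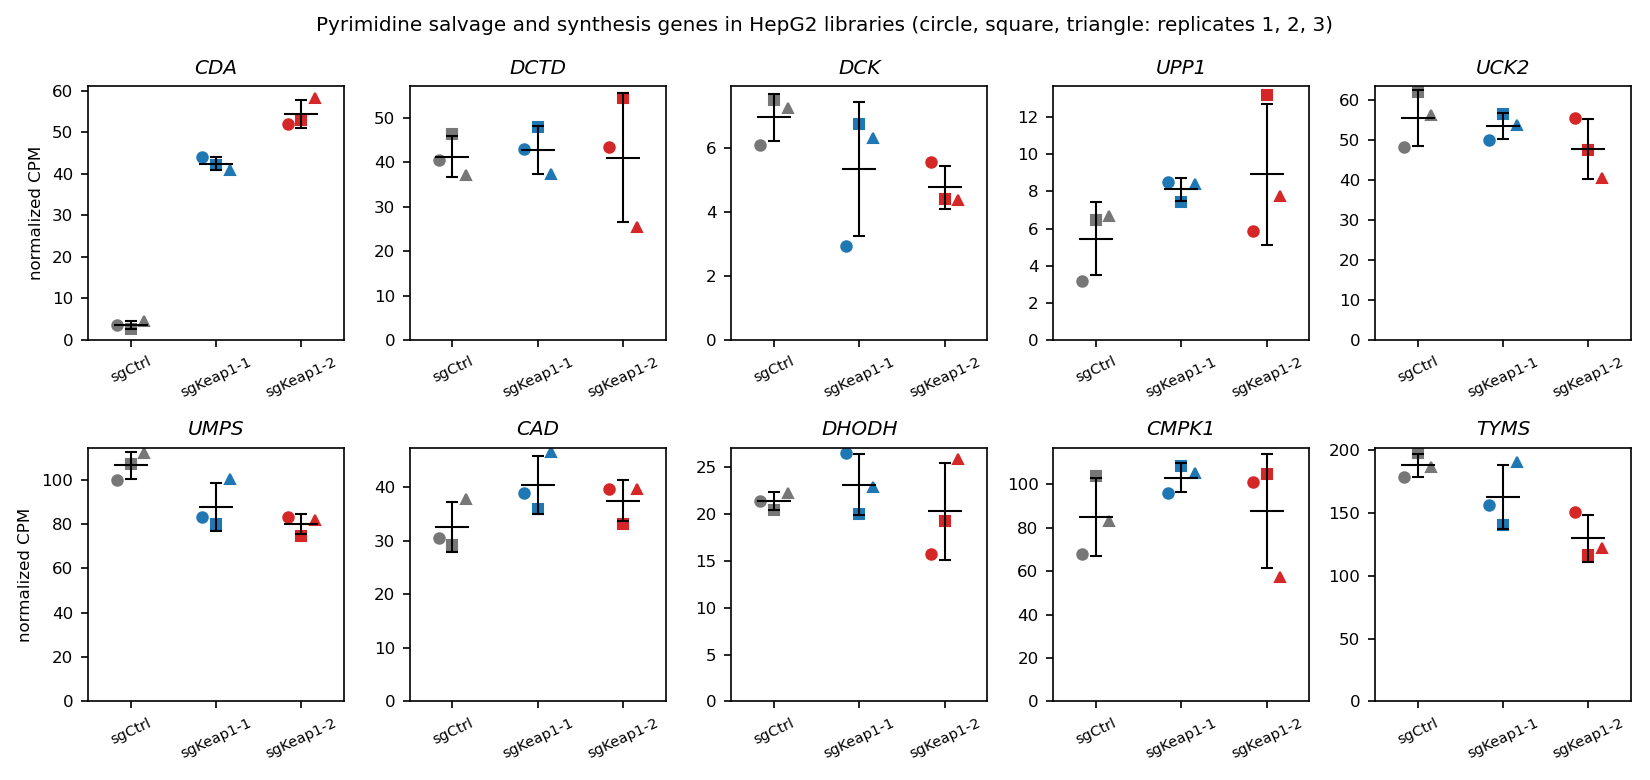
Normalized CPM (vertical axes, each starting at 0) of the 10 genes in the 9 HepG2 libraries, grouped as sgCtrl, sgKeap1-1 and sgKeap1-2. Circles, squares and triangles are replicates 1, 2 and 3, horizontal lines are group means and bars are the SD (n = 3). CDA lies between 2.72 and 4.46 in sgCtrl and between 41.0 and 58.4 in the KEAP1-targeted libraries, while for most other genes the groups overlap.

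Of the 10 members, CDA alone was called (an adjusted p under 0.05) with sgKeap1-1, and CDA and TYMS were called with sgKeap1-2, counts that are given as a description because the members were chosen with these values known. Over all 11064 features that passed the filter on low counts, as all 10 members did, 4.20% were called with sgKeap1-1 and 10.8% with sgKeap1-2. Without CDA, the fitted log2 changes of the other 9 members ran from -0.37 to 0.59 with sgKeap1-1 (median 0.06) and from -0.545 to 0.74 with sgKeap1-2 (median -0.07). The medians over all features tested were -0.00062 and -0.014 on the same scale. Both comparisons use the same 3 sgCtrl libraries, so they are not independent. The calls above come from a model without the replicate number, although same-numbered libraries of sgKeap1-1 and sgCtrl deviated together. With the replicate number added to the model as a block, 8.83% and 17.7% of all features were called, and the members called were CDA with sgKeap1-1 and CDA, TYMS and UMPS with sgKeap1-2.

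**Figure D2:**
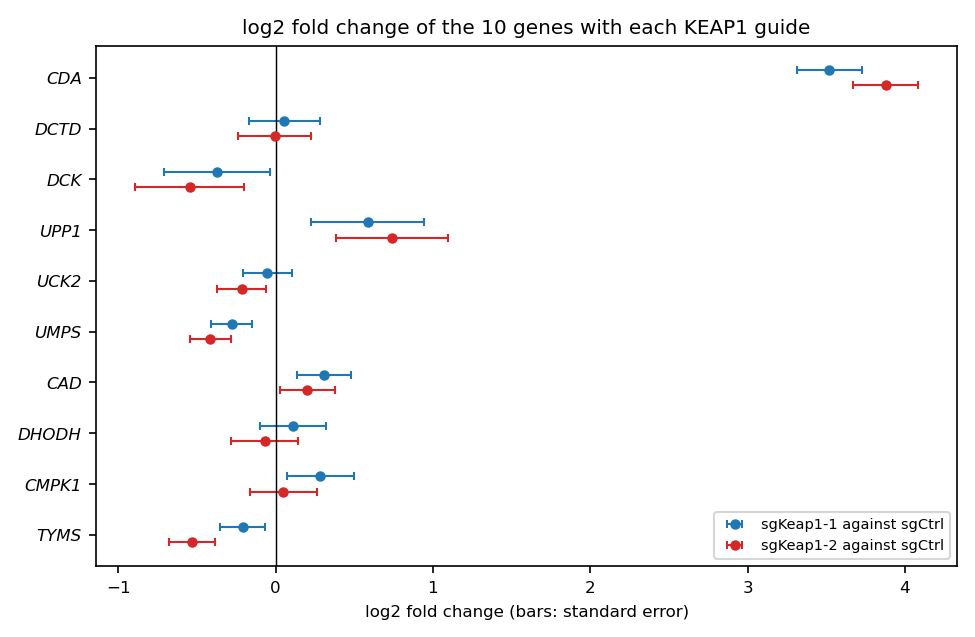
Fitted log2 fold change (horizontal axis) of the 10 genes for sgKeap1-1 against sgCtrl (blue) and sgKeap1-2 against sgCtrl (red), with bars for the SE. CDA lies at 3.52 and 3.88, and the other 9 genes lie between -0.545 and 0.74.

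The second deaminase, DCTD, did not follow CDA. DCTD had 40.5, 46.3 and 37.1 normalized CPM in sgCtrl, 43.1, 47.9 and 37.3 in sgKeap1-1 and 43.4, 54.4 and 25.4 in sgKeap1-2. The groups overlapped, and the widest spread was within sgKeap1-2. On the log2 scale it changed by 0.06 ± 0.23 (SE) with sgKeap1-1 and -0.01 ± 0.23 with sgKeap1-2. The enzyme that would use the dUMP made by DCTD is TYMS, described below with the genes of DNA synthesis. CDADC1, a relative of the deaminases from the wider list of pathway genes, had log2 fold changes of 0.03 ± 0.23 (adjusted p = 0.973) and -0.01 ± 0.23 (adjusted p = 0.985), at a mean level of 10.5 normalized CPM in sgCtrl.

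Of the members that act beside CDA in salvage, DCK, UPP1, UCK2 and CMPK1, none was called with either guide. DCK, which phosphorylates deoxycytidine and competes with CDA for it, had 6.1, 7.49 and 7.25 normalized CPM in sgCtrl, 2.92, 6.75 and 6.31 in sgKeap1-1 and 5.54, 4.39 and 4.36 in sgKeap1-2. The sgKeap1-2 libraries were all below the control libraries, whereas sgKeap1-1 overlapped with them, replicate 1 being the lowest of all 9. Its change on the log2 scale was -0.37 ± 0.34 (SE) with sgKeap1-1 and -0.545 ± 0.35 with sgKeap1-2, differences of 1 to 2 times their errors at these low levels. The ARE core printed above lies upstream of this gene.

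UPP1, the phosphorylase that splits uridine, the product of CDA, into uracil and ribose 1-phosphate, had 3.18, 6.46 and 6.69 normalized CPM in sgCtrl. It had 8.5, 7.41 and 8.41 in sgKeap1-1 and 5.85, 13.2 and 7.75 in sgKeap1-2. All sgKeap1-1 libraries were above all controls, while sgKeap1-2 overlapped with them through its replicate 1. The fitted log2 difference was 0.59 ± 0.36 (SE) with sgKeap1-1 and 0.74 ± 0.36 with sgKeap1-2. UPP1 had the second-highest fitted change of the members with each guide, and it was called with neither.

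UCK2, a kinase that makes UMP and CMP from uridine and cytidine, had 48.2, 61.9 and 56.0 normalized CPM in sgCtrl, 49.9, 56.4 and 53.6 in sgKeap1-1 and 55.4, 47.3 and 40.5 in sgKeap1-2. The groups overlapped in both comparisons, with log2 fold changes of -0.05 ± 0.16 (SE) and -0.22 ± 0.16. CMPK1, the kinase that carries UMP and CMP on to their diphosphates, had 67.8, 103.8 and 82.8 normalized CPM in sgCtrl, 95.7, 108.5 and 104.9 in sgKeap1-1 and 101.0, 104.6 and 57.2 in sgKeap1-2. Its libraries ranged within sgCtrl and within sgKeap1-2 over more than the distance between the group means, and the log2 fold changes were 0.28 ± 0.21 (SE) and 0.05 ± 0.21. CMPK1 overlaps LINC01389 on the opposite strand at its 3′ end, and whether the counting used strand is not stated in the sources used here.

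Without the replicate block, none of the genes of de novo synthesis was called with either guide. CAD had 30.5, 29.3 and 37.9 normalized CPM in sgCtrl, 39.0, 35.9 and 46.5 in sgKeap1-1 and 39.7, 33.2 and 39.7 in sgKeap1-2. In each of the 3 same-numbered pairs CAD was higher with either guide than in sgCtrl, but the groups overlapped, and the fitted log2 difference was 0.31 ± 0.17 (SE) with sgKeap1-1 and 0.20 ± 0.17 with sgKeap1-2. DHODH had 21.5, 20.4 and 22.3 normalized CPM in sgCtrl, 26.5, 20.04 and 22.9 in sgKeap1-1 and 15.7, 19.3 and 25.9 in sgKeap1-2. The controls lay within the range of both KEAP1-targeted groups, with log2 fold changes of 0.11 ± 0.21 (SE) and -0.07 ± 0.21.

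UMPS, the last enzyme of the route, was on the other side of the control level from CAD. It had 99.9, 107.2 and 112.1 normalized CPM in sgCtrl, 83.1, 79.9 and 100.2 in sgKeap1-1 and 83.1, 74.6 and 81.6 in sgKeap1-2. All sgKeap1-2 libraries were below all controls, and with sgKeap1-1 only replicate 3 reached into the control range. The fitted log2 difference was -0.28 ± 0.13 (SE) with sgKeap1-1 and -0.42 ± 0.13 with sgKeap1-2, and neither was called without the replicate block, with which the difference for sgKeap1-2 was called. Summed over CAD, DHODH and UMPS, the level was 151.8 to 172.3 normalized CPM in sgCtrl, 135.9 to 169.6 in sgKeap1-1 and 127.1 to 147.3 in sgKeap1-2.

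TYMS, which methylates dUMP to thymidylate and is the target of fluoropyrimidine drugs, was lower with sgKeap1-2. It had 179.1, 198.0 and 186.8 normalized CPM in sgCtrl, 156.6, 140.5 and 190.6 in sgKeap1-1 and 151.1, 116.6 and 122.4 in sgKeap1-2. The sgKeap1-2 libraries were all below the controls, whereas replicate 3 of sgKeap1-1 lay within the control range. The mean level was 188.0 ± 9.5 (SD, n = 3), 162.6 ± 25.6 and 130.0 ± 18.5 in sgCtrl, sgKeap1-1 and sgKeap1-2. The fitted log2 difference was -0.53 ± 0.14 (SE) with sgKeap1-2 and -0.21 ± 0.14 with sgKeap1-1. The first was called and the second was not, given only as a description because the members were chosen with these values known. The call with sgKeap1-2 was lost in 4 of the 9 fits that leave out 1 library, with values of -0.57, -0.50 and -0.54 without sgCtrl replicate 1, 2 and 3 and -0.45 without sgKeap1-2 replicate 2. The fits without an sgKeap1-1 library, in which the call held, leave both compared groups whole. ENOSF1 overlaps TYMS at its 3′ end on the opposite strand and had log2 fold changes of 0.34 ± 0.21 (SE, adjusted p = 0.515) and 0.45 ± 0.21 (adjusted p = 0.221), and TYMS has the processed pseudogenes TYMSP1 and TYMSP2 with which reads could be shared.

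TYMS is transcribed mainly in cells that replicate their DNA, so 11 genes of S phase and mitosis were measured beside it. Their summed level was 3352 to 4771 normalized CPM in sgCtrl, 1818 to 3959 in sgKeap1-1 and 1949 to 3708 in sgKeap1-2, and in all 3 groups replicate 2 was the lowest. For TYMS, replicate 2 was the lowest library of both KEAP1-targeted groups but the highest of sgCtrl. All 11 genes had a negative log2 fold change with each guide, with a median of -0.29 with sgKeap1-1 and -0.52 with sgKeap1-2. None passed the edgeR test with sgKeap1-1, against 4.20% of all features called by edgeR. DESeq2 and limma-voom also called 0 of the 11 with this guide. Of all features, DESeq2 called more than edgeR there, and limma-voom called fewer. An unadjusted p under 0.05 was found for 1 of the 11 with sgKeap1-1 and 4 of the 11 with sgKeap1-2, against 15.0% and 23.3% of all features. The 3 KEAP1-targeted libraries were all below the 3 controls for 0 of the 11 with sgKeap1-1 and 4 of the 11 with sgKeap1-2, against 10.3% and 13.7% of all features. With sgKeap1-2 edgeR called 1 of the 11, against 10.8% of all features. This gene, CCNA2, a cyclin of S and G2 phase, fell with sgKeap1-2 (log2 fold change -0.85 ± 0.20 (SE), adjusted p = 0.0162), a call lost without sgCtrl replicate 3 (-0.75) or sgKeap1-2 replicate 2 (-0.69). In the model with the replicate block, given here because same-numbered libraries of sgKeap1-1 and sgCtrl deviated together, 4 of the 11 were called lower with sgKeap1-1, namely MCM2, MCM4, TOP2A and CCNA2, against 8.83% of all features called in that model. The same model called 8 of the 11 lower with sgKeap1-2, against 17.7% of all features. For sgKeap1-2 and sgCtrl, 2 of the 3 same-numbered pairs of libraries correlated over 0.1 in their deviations. The part of these genes' change in the level of TYMS was not tested.

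A wider list of 43 genes of the pathway was drawn up by role, and 37 of them were in the table and 31 passed the filter. With each guide 1 of the 31 was called lower and none higher, against the 4.20% and 10.8% of all features called, and the list had a median log2 fold change of -0.05 for sgKeap1-1 and -0.08 for sgKeap1-2, against the medians over all features given above. The number with an unadjusted p under 0.05 was 3 of 31 with sgKeap1-1 and 5 of 31 with sgKeap1-2, against 15.0% and 23.3% of all features. In both comparisons the gene called without the replicate block was UCK1, the sister kinase of UCK2. With the block, 3 of the 31 were called lower with sgKeap1-2 (UCK1, DUT and DTYMK), against 17.7% of all features called in that model. UCK1 had 28.4, 28.9 and 28.4 normalized CPM in sgCtrl, 16.8, 11.8 and 15.5 in sgKeap1-1 and 12.6, 13.4 and 20.1 in sgKeap1-2. Every KEAP1-targeted library was below every control, with a control mean of 28.6 ± 0.31 (SD, n = 3). UCK1 fell by 0.96 ± 0.22 (SE) on the log2 scale with sgKeap1-1 (adjusted p = 0.0206) and by 0.885 ± 0.22 with sgKeap1-2 (adjusted p = 0.0179, edgeR quasi-likelihood test).

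Both UCK1 calls held with the replicate block, and both were lost in some of the 9 fits that leave out 1 library. The fits without a library of the other guide leave both compared groups whole, and no call was lost in them. The call with sgKeap1-1 was lost without sgCtrl replicate 1, 2 or 3 (log2 fold change -0.97, -0.95 and -0.96) and without sgKeap1-1 replicate 2 or 3 (-0.82 and -1.002). The call with sgKeap1-2 was lost without sgCtrl replicate 1 or 3 (-0.89 in both cases) and without sgKeap1-2 replicate 1 or 2 (-0.77 and -0.78). In all 9 fits the fold change kept its direction, from -1.07 to -0.82 with sgKeap1-1 and from -1.13 to -0.77 with sgKeap1-2. UCK1 overlaps POMT1 on the opposite strand at its 3′ end, and POMT1 had log2 fold changes of -0.36 ± 0.31 (SE, adjusted p = 0.695) and -0.10 ± 0.31 (adjusted p = 0.889). UCK2, which carries out the same reaction, had -0.05 and -0.22 on the same scale, and the difference between the sister kinases was not tested.

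In the other role groups edgeR called no gene without the replicate block, and the gene with the highest mean level stands for each. RRM1, the large subunit of ribonucleotide reductase, had log2 fold changes of -0.21 ± 0.30 (SE, adjusted p = 0.844) with sgKeap1-1 and -0.31 ± 0.30 (adjusted p = 0.611) with sgKeap1-2. The 6 genes of CTP and deoxynucleotide formation ran from -0.23 to 0.20 with sgKeap1-1 and from -0.52 to 0.27 with sgKeap1-2. SHMT2, which charges folate with the one-carbon unit in mitochondria, had 0.05 ± 0.13 (adjusted p = 0.924) and 0.09 ± 0.14 (adjusted p = 0.772), within a folate group of 2 genes that ran from -0.06 to 0.05 and from -0.18 to 0.09. PRPS1, which makes the phosphoribosyl donor used by UMPS, had 0.02 ± 0.15 (adjusted p = 0.973) and 0.25 ± 0.15 (adjusted p = 0.344). The 2 genes of this group ran from -0.24 to 0.02 with sgKeap1-1 and from -0.41 to 0.25 with sgKeap1-2.

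DCTPP1, a pyrophosphatase that cleaves dCTP, had log2 fold changes of -0.17 ± 0.15 (SE, adjusted p = 0.686) with sgKeap1-1 and -0.22 ± 0.15 (adjusted p = 0.417) with sgKeap1-2. The 7 tested genes of breakdown and dephosphorylation ran from -0.17 to 0.34 and from -0.28 to 0.10. SLC29A1, the equilibrative transporter that brings nucleosides into the cell, had -0.07 ± 0.19 (adjusted p = 0.937) and -0.16 ± 0.19 (adjusted p = 0.692). The 3 tested transporters ran from -0.46 to -0.07 with sgKeap1-1 and from -0.46 to 0.18 with sgKeap1-2. SLC29A4 was the lowest in both, below every control library but not called. Of all 31 tested genes, 2 lay below every control in this way with sgKeap1-1 and 5 with sgKeap1-2, against 10.3% and 13.7% of all features. Above every control lay 2 and 1 of the 31, against 11.5% and 14.3%. The kinase group of 10 tested genes held UCK1 at its lower end and reached 0.65 and 0.62 at its upper end, with medians of 0.07 and 0.11. The fitted changes of all 31 tested genes lay between -0.96 and 0.65 with either guide, against 3.52 and 3.88 for CDA.

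**Figure D3:**
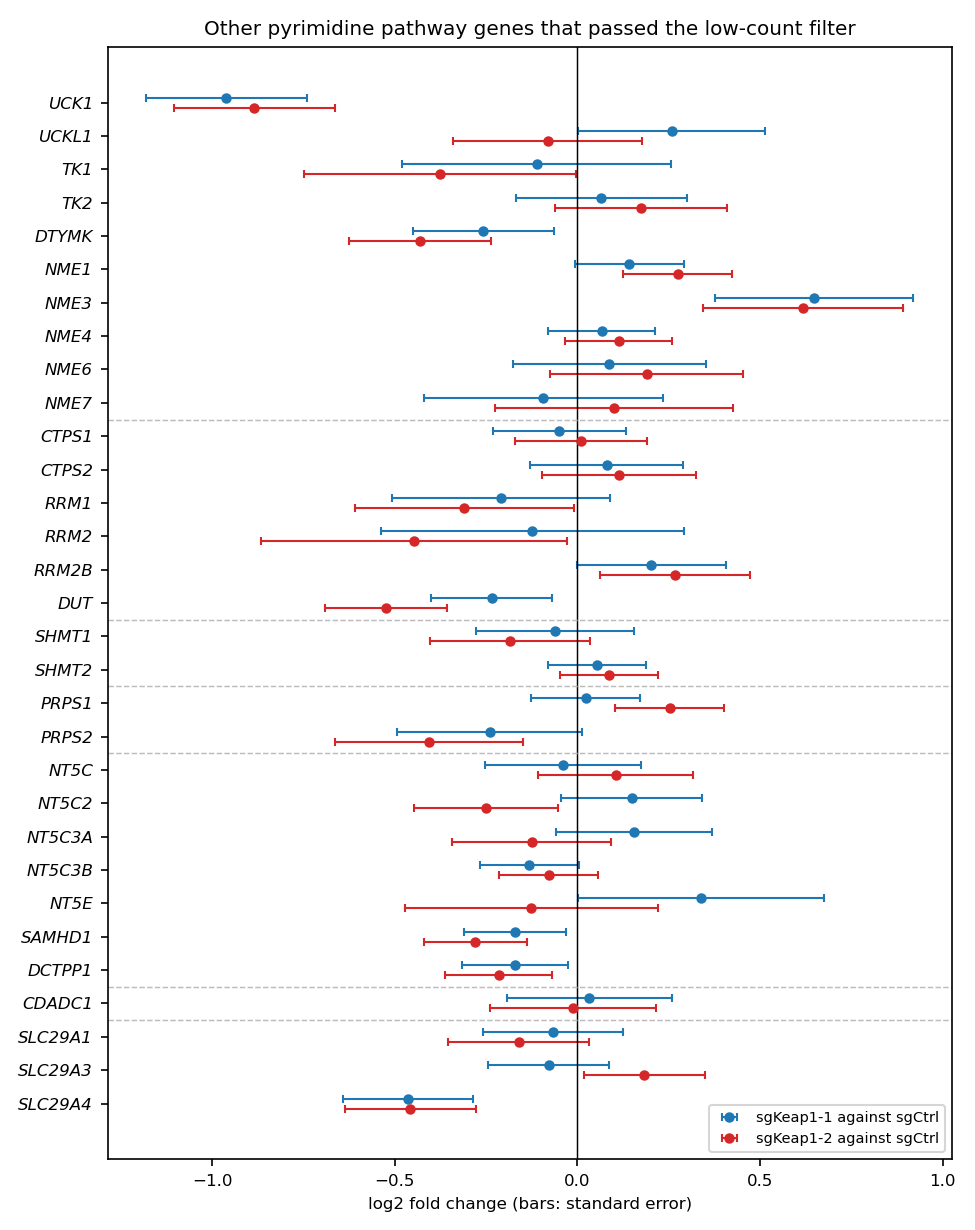
Fitted log2 fold change (horizontal axis) of the 31 tested genes of the wider pathway list, in role groups separated by dashed lines, for sgKeap1-1 (blue) and sgKeap1-2 (red) against sgCtrl, with bars for the SE. UCK1 lies lowest, at -0.96 and -0.885, and was the gene called in both comparisons.

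Compared with each other, the guides gave no called difference in any of the 10 members by edgeR, DESeq2 or limma-voom, and of all features 0.0181% were called by edgeR. CDA was 1.28-fold as high with sgKeap1-2 as with sgKeap1-1, a log2 difference of 0.36 ± 0.15 (SE). The libraries of the guides did not overlap for CDA, a separation that 10.4% of all features showed in this comparison. Among the other members the largest difference was that of TYMS, at -0.32 ± 0.14, with overlapping libraries. In order of mean level, CDA was lowest in sgCtrl, higher with sgKeap1-1 and highest with sgKeap1-2, and the last step was not called.

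The separation of the libraries, apart from any test, was counted as well. With sgKeap1-1, CDA and UPP1 were higher in all 3 libraries than in any control and no member was lower, while 11.5% of all features were higher in this way and 10.3% lower (21.7% together). With sgKeap1-2, CDA was higher in all libraries and DCK, UMPS and TYMS were lower, against 14.3% and 13.7% of all features (28.0% together). Of the members, only CDA separated from sgCtrl with both guides. The share of all features that did so with both guides was not counted.

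The genes whose pattern over the 9 libraries was most like that of CDA were found by the root mean square difference of their log2 levels, each taken relative to its control mean. They were SLC5A11 (0.25), HRCT1 (0.27), IGFBP6 (0.29), UGT1A1 (0.31) and GSTA2 (0.33), and the next, outside the rule, was CABYR at 0.34. SLC5A11, a sodium-coupled transporter of inositol, had 2.38 to 3.97 normalized CPM in sgCtrl, 25.1 to 41.6 in sgKeap1-1 and 41.2 to 55.7 in sgKeap1-2. GSTA2, a glutathione transferase of liver, had 5.57 to 7.25, 60.4 to 106.8 and 71.7 to 126.2. UGT1A1, the enzyme that conjugates bilirubin, had 0 to 0.56, 5.88 to 8.94 and 8.93 to 10.9. For all of these genes the KEAP1-targeted libraries were above every control.

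IGFBP6, a secreted protein that binds insulin-like growth factor II, had 1.59 to 4.46 normalized CPM in sgCtrl, 30.7 to 32.9 in sgKeap1-1 and 30.2 to 41.0 in sgKeap1-2. HRCT1 had 0.34 to 1.67, 11.0 to 14.6 and 17.6 to 20.6 in the same groups. In sgCtrl, UGT1A1 rested on 0, 1 and 2 reads and HRCT1 on 2, 1 and 6. The log2 levels compared carry a prior count of 2, which shrinks differences at so few reads. Fitted log2 fold changes with sgKeap1-1 and sgKeap1-2 were 4.58 and 4.90 for UGT1A1 and 3.81 and 4.41 for HRCT1. They were 3.33 and 3.81 for SLC5A11, 3.47 and 3.69 for IGFBP6 and 3.735 and 3.99 for GSTA2, against 3.52 and 3.88 for CDA. These genes were chosen for their likeness, so their levels carry no test. UGT1A1 shares its 3′ exons with the rest of the UGT1A locus and GSTA2 has close paralogs, so the reads of both may belong in part to relatives. None of these genes is an enzyme of pyrimidine metabolism.

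**Figure D4:**
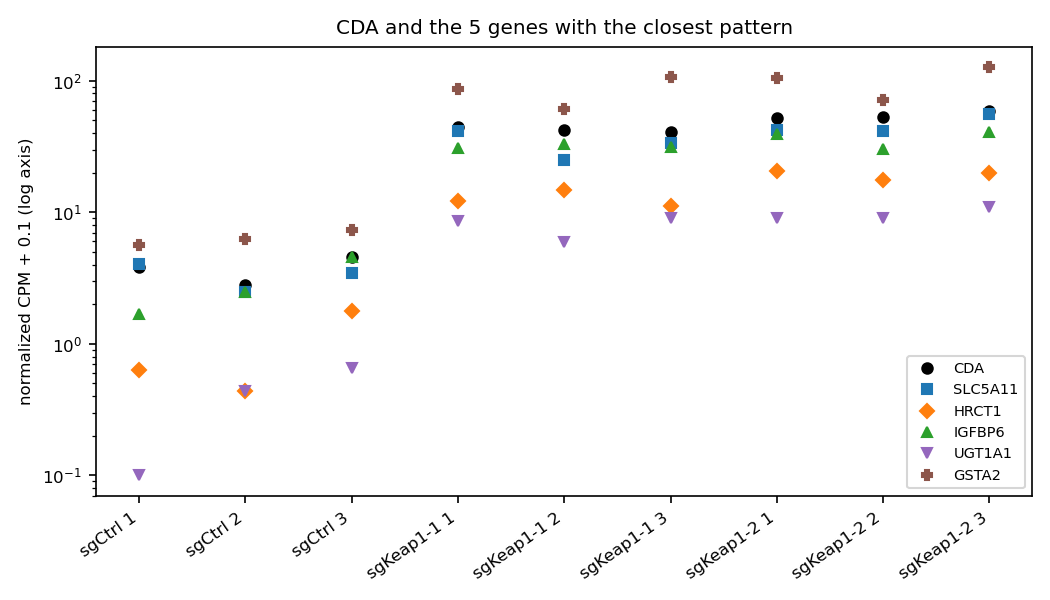
Normalized CPM plus 0.1 (vertical log axis) of CDA and the 5 genes with the closest pattern in each of the 9 libraries (horizontal axis). Each symbol is 1 library, and for every gene the 6 KEAP1-targeted libraries lie above the 3 sgCtrl libraries.

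In the genome (GRCh38.p14, RefSeq) the members lie at separate loci: CDA (gene 978) at chr1:20589097-20618903, CMPK1 (gene 51727) at chr1:47333790-47378839 and UCK2 (gene 7371) at chr1:165827614-165911618. CAD (gene 790) lies at chr2:27217369-27243943 and UMPS (gene 7372) at chr3:124730452-124749273. DCK (gene 1633) and DCTD (gene 1635) share a chromosome, at chr4:70993649-71030914 and chr4:182890091-182917611. UPP1 (gene 7378) lies at chr7:48088704-48108736, DHODH (gene 1723) at chr16:72008744-72027659 and TYMS (gene 7298) at chr18:657653-673578.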

How the data were processed

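RNA from 9 libraries of HepG2 cells, 3 each of sgCtrl, sgKeap1-1 and sgKeap1-2, was measured by QuantSeq 3′ sequencing. The authors deposited whole-number read counts per gene, and the submitters' processing notes name FastQC 0.72, cutadapt 1.16, STAR 2.7.5b, featureCounts 1.6.3 and limma 3.40.6. These notes name hg38, whereas the study's methods name an earlier build, and the table holds gene numbers and no coordinates. The strand setting is not given in the sources used here. Every one of the 12798 rows had over 0.5 CPM in at least 3 libraries. The 1052 rows without a gene number held 1.34% of the reads and were left out of library sizes and tests, leaving 11746.

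From the counts, edgeR 4.0.16 (R 4.3.3) was run with TMM scaling, filterByExpr, a robust quasi-likelihood fit over all 9 libraries with group as the only term, and Benjamini-Hochberg adjustment over the 11064 features tested, with a threshold of 0.05. The code was tested on simulated data. The 10 genes and all lists were chosen with earlier results of these data known. Named are all 10 genes, KEAP1, other pathway genes called with either guide (otherwise the gene of highest mean level in each role group) and the 5 features most like CDA. The genes of S phase named, the cell type markers named, ENOSF1, POMT1, DUT, DTYMK, DPYD, SLC28A1, NT5M, NME2, TYMP, UPB1, SLC29A4 and CABYR lie outside this rule. Those given with values were chosen after these were seen. A further gene first listed with the pathway is not reported here. Overlaps at 3′ ends were read from the GENCODE annotation. Log2 levels for the likeness to CDA used a prior count of 2.

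Libraries of 1 group differed by more than sampling noise (chi-square per degree of freedom 4.63 to 24.1), so none was counted as a duplicate. The labels give the groups shared replicate numbers and, in the sample descriptions, a shared prefix of unstated meaning. Deviations from the group means of same-numbered libraries correlated at 0.163 to 0.378 between sgKeap1-1 and sgCtrl, over 0.1 in all 3 pairs, so the numbers were taken to pair these. The main fit does not use this pairing, so its calls and adjusted p-values for sgKeap1-1 come from an unpaired model. With the block, 977 features were called there, against 465 without it. Alternatives were a block for the replicate number, no TMM scaling or DESeq2 size factors in its place, limma-voom (limma 3.58.1), the Wald test of DESeq2 1.42.0, a filter of 1 count in all or of 10 counts per library, a fit of the compared groups alone, and leaving out each library in turn.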

Additional observations from a re-analysis of the deposited data

How the results depend on the processing

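The log2 fold change of CDA kept its direction with both guides under every alternative that measured it, at 3.37 to 3.69 with sgKeap1-1 and 3.73 to 4.05 with sgKeap1-2. With at least 10 counts in every library CDA was not measured, which leaves 0 and 1 members called with sgKeap1-1 and sgKeap1-2. No named value changed sign while called. At this depth DCK and UPP1, with few reads, had the largest SEs of the members.

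With the replicate block, 977 features were called with sgKeap1-1 and 1956 with sgKeap1-2, against 465 and 1196 without it (8.83% and 17.7% of the features tested, against 4.20% and 10.8%), and 26 against 2 between the guides. The block called 4 of the S phase and mitosis genes with sgKeap1-1 and 8 with sgKeap1-2, and 3 of the other pathway genes with sgKeap1-2 (UCK1, DUT and DTYMK). It added UMPS to the members called with sgKeap1-2, for 3 in all, and changed no other call among the members. Same-numbered libraries correlated at -0.0129 to 0.341 between sgKeap1-2 and sgCtrl and at 0.0304 to 0.521 between the guides. This was over 0.1 in 2 of 3 pairs each, short of the rule of all 3 pairs. Differently numbered libraries had mean correlations of -0.0908 and -0.131 in these comparisons. Missing the rule therefore does not show that these libraries are unpaired, and the labels give all groups the same numbers.

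The DESeq2 Wald test and the fit of only the 2 groups compared each called 2 of 31 other pathway genes and 3 of 11 S phase and mitosis genes with sgKeap1-2. The edgeR fit over all 9 libraries called 1196 of all features there (10.8%). Of all features, DESeq2 called more than that fit, and the fit of only 2 groups called fewer. The shares that these 2 fits called are not printed here, so their list counts are not read as a result. Between the guides, DESeq2 called 19 features, and limma-voom, the minimum of 10 counts and the fit of only 2 groups called 0. The minimum of 10 counts called 312 features with sgKeap1-1 and limma-voom 418. Leaving out 1 library gave 278 to 688 called features with sgKeap1-1, 764 to 1291 with sgKeap1-2 and 0 to 2 between the guides. The count was more than 1.5 times lower without sgCtrl replicate 1 (278 and 764 with sgKeap1-1 and sgKeap1-2), sgCtrl replicate 3 (287 and 778) and sgKeap1-1 replicate 1 (285 with sgKeap1-1). Leave-one-out gave 0 to 1 other pathway genes with sgKeap1-1 and 0 to 2 with sgKeap1-2, 0 to 3 S phase and mitosis genes and 1 to 2 members with sgKeap1-2. The cause of these moves was not tested.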

Other observations

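DPYD, the enzyme that starts the breakdown of uracil and thymine and of fluorouracil, had too few reads to pass the filter and was looked at after its values were seen. It had 11, 11 and 9 reads in sgCtrl, 5, 7 and 1 in sgKeap1-1 and 2, 3 and 4 in sgKeap1-2, that is 2.92, 3.74 and 2.51, 1.22, 1.52 and 0.26, and 0.62, 0.73 and 0.97 normalized CPM. Every KEAP1-targeted library was below every control. Among the features that passed the filter, which DPYD did not, 10.3% lay below every control with sgKeap1-1 and 13.7% with sgKeap1-2, each guide taken alone. The share among rows with so few reads, or with both guides, was not counted. Fitted without the filter, the log2 fold change was -1.53 ± 0.58 (SE, adjusted p = 0.203, edgeR) with sgKeap1-1 and -1.91 ± 0.62 (adjusted p = 0.0654) with sgKeap1-2, and neither was called.

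SLC28A1, a concentrative transporter of pyrimidine nucleosides, also fell under the filter. Its reads were 6, 21 and 2 in sgCtrl, 1, 10 and 0 in sgKeap1-1 and 0, 1 and 1 in sgKeap1-2. Fitted without the filter, the log2 fold change was -1.74 ± 1.00 (SE, adjusted p = 0.474, edgeR) with sgKeap1-1 and -3.85 ± 1.33 (adjusted p = 0.0902) with sgKeap1-2, and neither was called. The other pathway genes under the filter went both ways in the same fit. With sgKeap1-1 and sgKeap1-2, NT5M had 0.87 and 0.68, NME2 0.33 and 0.12, TYMP -0.22 and -0.26 and UPB1 -0.06 and -1.675. None of them was called.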
